A study of Mus musculus with 12 samples.

Results

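The type I and type II interferon receptors and the proteins next to them in the pathway were described through 8 genes, which were the receptor chains *Ifnar1*, *Ifnar2*, *Ifngr1*, and *Ifngr2*, the Janus kinases *Jak1* and *Tyk2*, and the transcription factor genes *Stat2* and *Irf9*. They were picked by name for these roles, with no measured value in the rule, and are 8 of the 31053 genes in the count matrices. Type I interferons bind a receptor made of IFNAR1 and IFNAR2, where TYK2 and JAK1 are activated and STAT2, with IRF9, is brought to interferon-stimulated response elements. Interferon gamma binds IFNGR1, which signals with IFNGR2 through JAK1 and JAK2. In tumors, type I interferon sensing by dendritic cells (DCs) is known to aid priming of CD8 T cells, and interferon gamma from T cells acts on macrophages and tumor cells.

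Transcripts of single cells were counted on the 10x Genomics platform in mammary tumors of PyMT mice, which carry the polyoma middle T oncogene under the MMTV promoter and form tumors spontaneously. The groups were 3 CD11c-selected PyMT-PAR2WT, 3 CD11c-selected PyMT-PAR2G37I, 3 CD4/CD8-selected PyMT-PAR2WT, and 3 CD4/CD8-selected PyMT-PAR2G37I samples, 12 in all, on a B6(Cg) background, without further treatment and with ages not given in the labels. PAR2G37I is a mutant of the receptor encoded by *F2rl1* that does not respond to coagulation factor Xa, and PAR2WT is the wild-type form. CD11c beads were used on late-stage tumors and CD4/CD8 beads on mid-size tumors, and the cells were frozen in serum with dimethyl sulfoxide and thawed before loading, so selection and tumor stage cannot be told apart between the matrices.

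The deposited counts are unique molecular identifiers (UMIs), each standing for 1 captured mRNA molecule, in 1 matrix per selection. The cell barcodes of these files name no sample. For this reason every matrix counts as 1 sample, genotypes are not compared, and no p-values are given. The CD11c-selected matrix held 11980 barcodes and 123700899 UMIs, and the CD4/CD8-selected matrix held 23101 barcodes and 136024767 UMIs. In both matrices the barcodes pass through the alphabet 6 times, and these 6 stretches are called barcode runs. They are used below to show spread, and which animals or genotypes a run holds is not known. In the CD11c-selected matrix 76 barcodes occurred in more than 1 run, against 51 in the CD4/CD8-selected matrix, and 92 distinct barcodes occurred in both matrices.

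Some barcode runs stood apart in depth. Run 4 of the CD11c-selected matrix held 360 barcodes with at least 21238 UMIs each and a median of 31162, whereas the lowest barcodes of the other runs had 101 to 113 UMIs. Run 2 of the CD4/CD8-selected matrix held 2344 barcodes with at least 3506 UMIs each, against lowest values of 101 to 115 in the other runs. Of 184 levels of the 8 genes in cell classes and subsets, 0 moved by over 1.5-fold when these runs were left out. The largest change was 1.23-fold, for *Ifngr2* in CD8 T cells, from 7.03 to 5.73 counts per 1000000 UMIs (CPM).

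Cells with at least 200 detected genes and under 10% mitochondrial UMIs were kept, 10187 and 19528 in the CD11c-selected and CD4/CD8-selected matrices. A cell entered a class when it had at least 4 UMIs from at least 2 marker genes of that class and no more than 1 UMI, or 20% of its own, from the markers of any other class. The gates placed 9311 cells of the former (91.4%) and 18470 of the latter (94.6%). Myeloid cells numbered 8954 in the CD11c-selected and 1068 in the CD4/CD8-selected matrix, and T cells numbered 51 and 17100. Tumor or epithelial cells, called tumor cells here, numbered 181 and 202, and fibroblasts numbered 96 and 83. Endothelial cells and B cells had under 50 cells in both matrices and were left out of the comparisons.

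Genes that were not used in the gates checked the class names. *Tyrobp*, an adaptor of myeloid and NK cell receptors, reached 1913 and 3039 CPM in myeloid cells of the CD11c-selected and CD4/CD8-selected matrices and 13.5 in CD4/CD8-selected T cells. *Cd2*, a T and NK cell adhesion receptor, stood at 271 and 414 in T cells, against 14.0 and 10.3 in myeloid cells. *Wfdc18*, a mammary epithelial gene, reached 6598 and 8134 in tumor cells, and *Sparc*, a matrix protein gene, reached 7451 and 7456 in fibroblasts. The 51 CD11c-selected T cells were less clean, with 305 CPM of *Tyrobp* and all 3 NK cell markers detected at 63.6 in sum, most of it *Klrb1c* at 36.8. Median depth also differed between classes, from 2883 UMIs per cell in CD11c-selected tumor cells to 23112 in CD4/CD8-selected tumor cells.

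CPM of a gene was taken after adding up all cells of a class, as its share of the UMIs of that class, with an exact 95% Poisson interval (CI) that covers counting error only. Runs with at least 20 cells of a class also gave a level each, reported as the lowest, median, and highest run. Levels are compared between cell classes for the same gene and not between genes, since capture differs between transcripts and the chemistry, 3' or 5', is not given in the sources used here.

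Across the classes, the receptor chains fell into different patterns. T cells had the highest *Ifngr1* and the lowest *Ifngr2* of the 4 classes in both matrices, and myeloid cells had the highest *Ifnar2* and *Ifngr2*. Tumor cells were below myeloid cells for all 4 chains. *Jak1* was highest in T cells and fibroblasts, and *Tyk2* had its lowest value in fibroblasts, whereas *Stat2* and *Irf9* showed no order of all 4 classes common to both matrices.

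*Ifnar1*, the chain that TYK2 binds, was at 105 CPM in CD11c-selected myeloid cells (CI 104 to 107) and at 110.5 in CD11c-selected T cells (CI 76.1 to 155), levels that did not differ beyond counting error. In the CD4/CD8-selected matrix it was at 79.2 in myeloid cells and 108 in T cells, 1.36-fold higher in T cells (CI 1.29 to 1.44). T cells were the higher class in 5 of 6 runs and the run ranges overlapped, from 61.1 to 127 in myeloid cells (median 91.8) and from 98.2 to 132 in T cells (median 104). The lowest myeloid value came from run 3, which held 50.1% of these myeloid cells. Without run 3 *Ifnar1* was at 112 in myeloid and 108 in T cells. The ratio of myeloid to T cells was then 1.03 (CI 0.959 to 1.11), so the T cell excess was not seen in the other runs pooled. The run with more *Ifnar1* in myeloid cells was run 2, set apart by depth (127 against 98.2). Without run 2 alone the levels were 69.4 in myeloid and 109.7 in T cells, so the pooled difference depended on the run left out.

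Non-hematopoietic cells held less *Ifnar1*. Fibroblasts were at 39.7 and 38.8 CPM in the CD11c-selected and CD4/CD8-selected matrices, and tumor cells at 26.9 and 20.1. Tumor cells were 3.92-fold below myeloid cells in the CD11c-selected matrix (CI 3.19 to 4.88) and lower in 5 of 5 runs. In the CD4/CD8-selected matrix they were 3.95-fold below myeloid cells (CI 3.32 to 4.74), lower in 6 of 6 runs, and the run ranges did not overlap in either matrix. The intervals of fibroblasts and tumor cells overlapped in the CD11c-selected matrix and not in the CD4/CD8-selected matrix, so the order of these neighbors was not settled by both.

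*Ifnar2*, the chain that binds type I interferon with the higher affinity and carries JAK1, was highest in myeloid cells, at 119 CPM in the CD11c-selected matrix (CI 117 to 121) and 145 in the CD4/CD8-selected matrix (CI 140 to 151). T cells had 43.5 and 40.2. Myeloid cells exceeded T cells 3.62-fold among CD4/CD8-selected cells (CI 3.45 to 3.80), in 6 of 6 runs, and 2.74-fold among CD11c-selected cells (CI 1.60 to 5.15). This was the more stable of the type I chains between runs, with CD4/CD8-selected T cells between 35.4 and 43.5 (median 39.7) and myeloid cells between 140 and 167 (median 156). Fibroblasts came next at 66.6 and 80.8, 1.79-fold and 1.80-fold below myeloid cells. Tumor cells, at 48.4 and 47.0, were close to T cells, with a ratio to T cells of 1.17 in the CD4/CD8-selected matrix (CI 1.04 to 1.31) and overlapping run ranges.

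*Ifngr1* encodes the chain that binds interferon gamma. In CD4/CD8-selected T cells it reached 895 CPM (CI 889 to 901), and its runs lay between 741 and 1057 with a median of 876. Myeloid cells of that matrix had 157, with runs from 137 to 210. No run of T cells came near the myeloid range, and T cells were higher in 6 of 6 runs, 5.69-fold on the pooled cells (CI 5.49 to 5.91). The CD11c-selected matrix had the same direction, with 834 in T cells (CI 733 to 944) against 179 in myeloid cells (CI 177 to 182), a 4.65-fold difference.

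The other classes held less *Ifngr1* than myeloid cells. Fibroblasts had 114 and 121.5 CPM in the CD11c-selected and CD4/CD8-selected matrices, 1.57-fold and 1.29-fold below myeloid cells. Tumor cells had 51.1 and 52.6, 3.51-fold below myeloid cells among CD11c-selected cells (CI 3.02 to 4.10) and 2.99-fold among CD4/CD8-selected cells (CI 2.68 to 3.34). The fall from T cells to tumor cells was 17.0-fold in the CD4/CD8-selected matrix (CI 15.3 to 18.9). The full order, T cells, then myeloid cells, then fibroblasts, then tumor cells, was the same in both matrices.

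*Ifngr2*, the chain that IFNGR1 needs for signaling and that carries JAK2, ran the other way. It stood at 128.5 and 122 CPM in myeloid cells of the CD11c-selected and CD4/CD8-selected matrices, and at 7.28 in CD4/CD8-selected T cells (CI 6.75 to 7.84). Runs of these T cells lay between 3.05 and 12.8 with a median of 6.98, and the highest was run 2, the run set apart by depth. Without that run the level was 6.26. Myeloid cells exceeded T cells 16.7-fold (CI 15.4 to 18.2), in 6 of 6 runs, with folds of 9.45 to 48.1 by run. CD11c-selected T cells held only 4 UMIs of *Ifngr2*, or 13.4 CPM, 9.60-fold below myeloid cells with a wide interval (CI 3.75 to 35.2).

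Myeloid RNA in T cell droplets was measured beside these values. In CD4/CD8-selected T cells 9 of 9 myeloid gate markers were detected at 168 CPM in sum, most of it *Ctss* at 106.5, against 31137 in myeloid cells. The complement genes *C1qa*, *C1qb*, and *C1qc*, outside the class gates, summed to 21.5 in these T cells, 0.169% of their myeloid level, and *Ifngr2* at that percent of its myeloid level would be 0.206 CPM. The measured 7.28 was above this. CD11c-selected T cells had 4 of 9 myeloid markers at 275 in sum, with *Cd68*, *Csf1r*, *Adgre1*, *Flt3*, and *Csf3r* at 0, and there the same reckoning gave 1.01 against 13.4 measured.

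Both non-hematopoietic classes had more *Ifngr2* than T cells and less than myeloid cells. Tumor cells were at 69.1 CPM in the CD11c-selected and 57.3 in the CD4/CD8-selected matrix, and fibroblasts at 75.7 and 83.4. Tumor cells exceeded T cells 7.86-fold in the CD4/CD8-selected matrix (CI 6.93 to 8.91), in 6 of 6 runs. They were below myeloid cells 1.86-fold and 2.13-fold, with run ranges apart in both matrices, so the tumor cell level of this chain was intermediate.

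**Figure D1:**
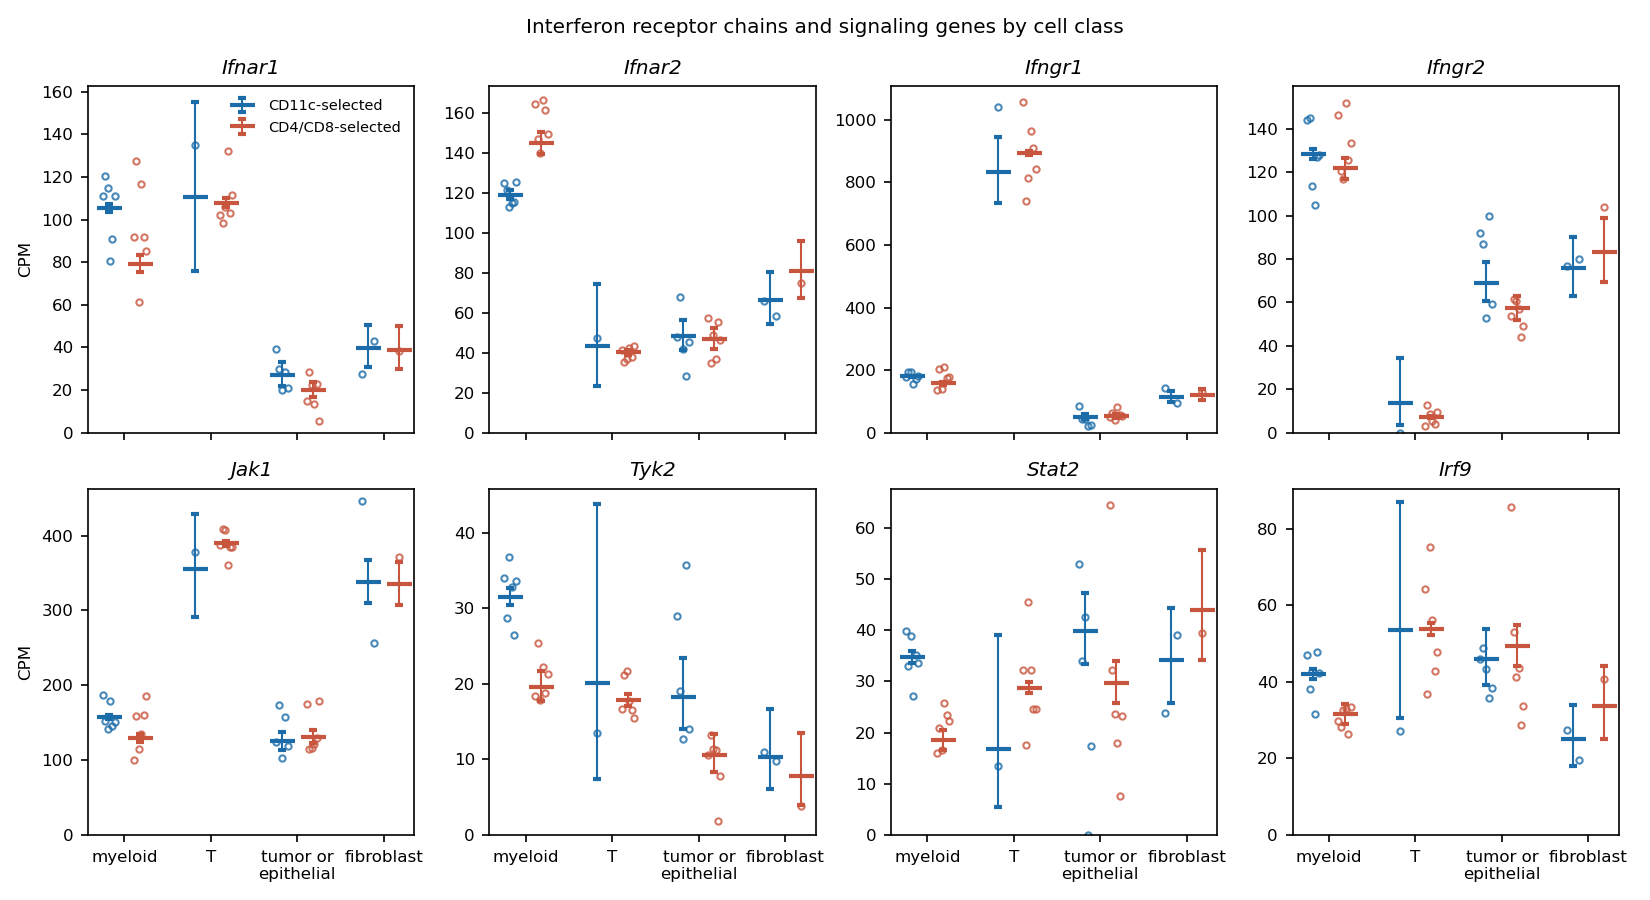
Levels of the 8 genes in CPM (vertical axis, starting at 0) in the 4 cell classes, with blue for the CD11c-selected and red for the CD4/CD8-selected matrix, bars for the pooled level with its exact 95% Poisson interval, and open circles for barcode runs with at least 20 cells of the class. *Ifngr1* is at 895 in CD4/CD8-selected T cells and 157 in myeloid cells, and *Ifngr2* at 7.28 and 122.

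*Jak1*, the kinase shared by both receptors, was at 355 CPM in CD11c-selected T cells (CI 291 to 429) and 389 in CD4/CD8-selected T cells (CI 385 to 393). Its runs in the latter were tight, from 361 to 409 with a median of 386. Myeloid cells had 157 and 129, and T cells exceeded them 2.26-fold (CI 1.85 to 2.73) and 3.02-fold (CI 2.90 to 3.14), in 6 of 6 runs of the CD4/CD8-selected matrix. Fibroblasts, at 338 and 335, were 2.15-fold (CI 1.97 to 2.34) and 2.59-fold (CI 2.36 to 2.85) above myeloid cells. Tumor cells, at 125.5 and 131, did not stand apart from myeloid cells by their run ranges. *Jak1* thus divided the classes into a high pair, T cells and fibroblasts, and a low pair, myeloid and tumor cells.

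*Tyk2* encodes a kinase of the type I receptor. Its level was 31.5 CPM in CD11c-selected myeloid cells (CI 30.5 to 32.6; runs 26.4 to 36.8, median 33.2) and 19.6 in CD4/CD8-selected myeloid cells. T cells of the CD4/CD8-selected matrix had 17.8, and the ratio of myeloid to T cells, 1.10, did not exceed counting error (CI 0.981 to 1.23), while without run 3 it was 1.32 (CI 1.11 to 1.56). Tumor cells had 18.3 and 10.6, and fibroblasts had 10.4 (17 UMIs) and 7.76 (12 UMIs). Fibroblasts had the lowest value in both matrices, 3.04-fold (CI 1.89 to 5.22) and 2.53-fold (CI 1.43 to 4.94) below myeloid cells, although these folds rest on few UMIs.

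*Stat2*, which is itself induced by interferon, had class levels that moved with the matrix. It was at 34.7 CPM in CD11c-selected myeloid cells (CI 33.6 to 35.9; runs 27.1 to 39.7, median 34.3) and at 18.5 in CD4/CD8-selected myeloid cells (CI 16.6 to 20.5; runs 16.0 to 25.8, median 21.6). CD4/CD8-selected T cells had 28.8 with runs from 17.5 to 45.5 (median 28.4), 1.55-fold above myeloid cells and higher in 5 of 6 runs, and 1.201-fold above without run 3 (CI 1.02 to 1.43). Tumor cells had 39.9 and 29.7, and fibroblasts 34.2 and 44.0. Runs of tumor cells spread from 0 to 52.8 and from 7.65 to 64.4, wider than any difference between classes. In the CD11c-selected matrix myeloid cells were 2.07-fold above T cells, a value from 5 T cell UMIs whose interval includes 1 (CI 0.887 to 6.39), and with a mitochondrial limit of 20% the log2 ratio was 0.35.

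*Irf9*, the DNA-binding partner of STAT2, was at 42.0 CPM in CD11c-selected myeloid cells (CI 40.8 to 43.3) and 31.5 in CD4/CD8-selected myeloid cells (CI 29.0 to 34.1). T cells had 53.6 and 53.8. In the CD4/CD8-selected matrix they exceeded myeloid cells 1.71-fold (CI 1.57 to 1.86), in 6 of 6 runs, with run ranges of 36.9 to 75.2 (median 52.0) and 26.3 to 33.4 (median 31.2) that did not overlap. Tumor cells had 46.1 and 49.3, and fibroblasts 25.03 and 33.6. The T cell excess was therefore seen in the larger T cell population, and in the CD11c-selected matrix the interval of the ratio included 1. In run 2, the only CD11c-selected run with at least 20 T cells, T cells were lower, at 27.0 (4 UMIs) against 38.1.

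Counts past 2-fold were set against all genes with at least 20 UMIs over both classes, which all 8 genes had in every comparison. Between myeloid and T cells of the CD11c-selected matrix, 3 of the 8 were over 2-fold higher in myeloid cells (*Ifnar2*, *Ifngr2*, and *Stat2*) and 2 lower (*Ifngr1* and *Jak1*), where 39.2% and 19.5% of 13509 genes were. Among CD4/CD8-selected cells 2 were higher in myeloid cells (*Ifnar2* and *Ifngr2*) and 2 lower (*Ifngr1* and *Jak1*), against 23.7% and 28.1% of 13707 genes. These shares were close to those of all genes, so the counts say nothing particular to the 8 genes, while the direction of *Ifnar2*, *Ifngr2*, *Ifngr1*, and *Jak1* was the same in both matrices.

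Between tumor and myeloid cells, 0 of the 8 were over 2-fold higher in tumor cells and 3 were lower (*Ifnar1*, *Ifnar2*, and *Ifngr1*) in the CD11c-selected matrix, where 28.3% and 21.2% of 14073 genes were. For CD4/CD8-selected cells 0 were higher and 4 were lower, the 4 receptor chains, against 29.4% and 16.7% of 12670 genes. The median log2 ratio of the 8 genes was −0.82 in the CD11c-selected and −0.95 in the CD4/CD8-selected matrix, beside 0.27 and 0.40 over all genes tested.

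Between fibroblasts and myeloid cells of the CD11c-selected matrix, 1 of the 8 was higher in fibroblasts (*Jak1*) and 2 were lower (*Ifnar1* and *Tyk2*), against 24.7% and 26.1% of 14057 genes. CD4/CD8-selected cells had 2 higher (*Jak1* and *Stat2*) and 2 lower (*Ifnar1* and *Tyk2*), against 24.2% and 19.4% of 12075 genes. *Jak1*, *Ifnar1*, and *Tyk2* thus had the same calls in both matrices.

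Tumor cells of the CD11c-selected matrix were over 2-fold above T cells for 2 of the 8 (*Ifngr2* and *Stat2*) and below for 3 (*Ifnar1*, *Ifngr1*, and *Jak1*), against 36.5% and 13.9% of 9839 genes. In the CD4/CD8-selected matrix 1 was above (*Ifngr2*) and the same 3 were below, against 32.2% and 20.5% of 13921 genes. Fibroblasts of the CD11c-selected matrix were above T cells for 2 (*Ifngr2* and *Stat2*) and below for 3 (*Ifnar1*, *Ifngr1*, and *Irf9*), against 32.9% and 20.7% of 8234 genes. CD4/CD8-selected fibroblasts were above for 2 (*Ifnar2* and *Ifngr2*) and below for 3 (*Ifnar1*, *Ifngr1*, and *Tyk2*), against 29.4% and 28.2% of 13616 genes. The CD11c-selected *Stat2* calls against T cells rest on 5 T cell UMIs, with intervals that include 1. *Ifngr2* above and *Ifnar1* and *Ifngr1* below T cells were the calls common to both matrices and both non-hematopoietic classes.

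A receptor needs both chains in the same cell, so cells with a UMI of each chain were counted after every cell was thinned at random to 2000 UMIs. This left out shallower cells and kept 7725 of 8954 CD11c-selected myeloid cells and 16553 of 17100 CD4/CD8-selected T cells. Among the T cells 80.0% had a UMI of *Ifngr1* (Clopper-Pearson CI 79.3% to 80.6%; 94.4% before thinning) and 1.27% had a UMI of *Ifngr2* (CI 1.10% to 1.45%; 3.04% before thinning). Both chains of the interferon gamma receptor were seen in 0.942% of T cells (CI 0.801% to 1.10%; 2.85% before thinning), close to the product of the single shares, 1.02%. Without run 2 the share was 0.779%. The scarcity of double-positive T cells was thus the scarcity of *Ifngr2*.

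CD11c-selected myeloid cells were more even between the chains of each receptor. *Ifngr1* was seen in 28.3% and *Ifngr2* in 22.6% of them, and both in 6.29% (CI 5.76% to 6.86%; 45.8% before thinning), beside a product of 6.41%. For the type I receptor, *Ifnar1* was seen in 19.0%, *Ifnar2* in 22.1%, and both in 4.14% (CI 3.71% to 4.61%; 39.6% before thinning), beside a product of 4.18%. In these myeloid cells the chains of a receptor were found together about as often as independent draws would give. Both type I chains were seen in 1.77% of T cells (CI 1.58% to 1.98%; 9.04% before thinning), beside a product of 1.52%. Among tumor cells and fibroblasts 3 or fewer thinned cells had both chains of either receptor, too few for a comparison.

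Cells were also gated into subsets by markers within a class, and the contrasts between subsets given here were chosen after their levels had been seen. In the CD11c-selected matrix 6865 macrophages, 366 monocytes, 128 neutrophils, 437 type 1 conventional DCs (cDC1), 699 type 2 conventional DCs (cDC2), and 311 migratory DCs were gated. cDC1, the DCs that cross-present antigen to CD8 T cells, are set against macrophages first, and each of these differences except that of *Irf9* had the same direction in 6 of 6 runs.

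*Ifnar1* was at 157 CPM in cDC1 and 96.7 in macrophages, 1.62-fold higher (CI 1.52 to 1.72), whereas *Ifnar2* was at 80.4 and 130.0, 1.62-fold lower (CI 1.49 to 1.76). The type I chains therefore went in opposite directions. *Ifngr1* was 2.00-fold higher in cDC1 (CI 1.91 to 2.09), at 308 against 154, and *Ifngr2* was 1.37-fold lower, at 101 against 138, with run ranges that overlapped for *Ifngr2* and not for *Ifngr1*.

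The kinases also diverged in cDC1. *Tyk2* was at 62.8 CPM in cDC1 and 25.5 in macrophages, 2.46-fold higher (CI 2.22 to 2.72), while *Jak1* was 1.37-fold lower, at 114 against 155. *Stat2* showed the widest cDC1 difference, 86.1 against 28.2, or 3.06-fold (CI 2.80 to 3.34; runs 2.41 to 3.59). *Irf9*, which acts in the same complex, was at 44.9 against 41.8 and did not exceed counting error (ratio 1.08, CI 0.958 to 1.21).

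Other myeloid subsets differed from macrophages in different genes. *Ifngr1* was at 414 CPM in neutrophils, 2.68-fold above macrophages (CI 2.29 to 3.13) in 3 of 3 runs, and at 269 in monocytes, 1.74-fold above (CI 1.64 to 1.85) in 5 of 5 runs. cDC2 had 239, 1.55-fold above in 6 of 6 runs, and their *Ifnar2*, 83.7, was 1.55-fold below, also in 6 of 6 runs. Monocytes also had more *Stat2*, 52.5, 1.87-fold above (CI 1.62 to 2.14) in 5 of 5 runs, with run ranges apart. *Ifngr1* in migratory DCs, mature DCs that express *Ccr7*, was at 138, and they were 2.23-fold below cDC1 (CI 2.03 to 2.47), in 5 of 5 runs and with run ranges apart. Migratory DCs also had the lowest *Ifnar2* of these subsets, 64.3, 2.02-fold below macrophages (CI 1.78 to 2.32), while their *Ifnar1*, 151, was 1.56-fold above.

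*Tyk2* was 1.75-fold above macrophages in cDC2 (44.7 CPM, CI of the ratio 1.58 to 1.93) and 1.87-fold above in migratory DCs (47.8, CI 1.59 to 2.19), with run ranges apart in both. Monocytes were also above macrophages, 1.495-fold (38.2, CI 1.26 to 1.76) in 5 of 5 runs, with run ranges that overlapped, so higher *Tyk2* was not particular to the DC subsets. *Jak1* was highest in neutrophils, at 297, 1.91-fold above macrophages (CI 1.58 to 2.29). Neutrophils had 3 UMIs of *Stat2*, or 7.47 CPM, 3.77-fold below macrophages with a CI of 1.29 to 18.3. Their median depth was 2947 UMIs against 8610 in macrophages, and 48.4% of them came from run 6, so neutrophil values for the scarcer genes are loose.

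In the CD4/CD8-selected matrix the T cells were gated into 13665 CD8 T cells, 1110 regulatory-gate T cells, 544 CD4 T cells, and 449 gamma delta T cells. The regulatory gate took cells with at least 1 UMI of *Foxp3*, *Il2ra*, or *Ikzf2*, and more than from any other T subset list. Over all T cells of this matrix that list summed to 214 CPM, of which *Ikzf2* held 197. The gate thus rests mostly on *Ikzf2*, and whether its cells are regulatory T cells was not tested. CD8 T cells had 7.03 CPM of *Ifngr2*, regulatory-gate T cells 5.59, and gamma delta T cells 4.91, with overlapping intervals. CD4 T cells had 18.8, 2.67-fold above CD8 T cells (CI 1.92 to 3.63), and were higher in 4 of 4 runs, although the run ranges overlapped. Their *Ifngr2* by run went from 9.89 in run 1 to 51.2 (median 27.2), and the folds within runs from 2.65 to 27.6, so the pooled fold lies at the low end of the runs. They also had the highest *Ifngr1*, 1351 against 875 in CD8 T cells, or 1.54-fold (CI 1.49 to 1.60). Run 1 held 73.2% of the CD4 T cells and had the highest *Ifngr1* over all T cells, and within single runs the fold was 1.29 to 1.41. So the pooled fold of *Ifngr1* overstates the fold within runs, and the direction was the same in all 4.

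On pooled cells the other genes differed little between T cell subsets. *Ifnar1* lay between 101 and 109 CPM and *Ifnar2* between 36.3 and 46.5 in the 4 subsets, with run ranges that overlapped between each subset and CD8 T cells. Within runs, CD4 T cells were above CD8 T cells for both chains in 3 of 4 runs. The folds by run went from 0.831 to 1.64 for *Ifnar1* and from 0.967 to 2.01 for *Ifnar2*. *Irf9* was lower in CD4 than in CD8 T cells in 4 of 4 runs (ratios 0.472 to 0.924), although the pooled ratio was 1.02. *Tyk2* was higher in regulatory-gate T cells, at 28.1 against 17.0 in CD8 T cells, 1.65-fold (CI 1.41 to 1.93) and in 6 of 6 runs. *Irf9* was lower in regulatory-gate T cells, at 39.9 against 54.8, 1.37-fold (CI 1.22 to 1.56) and in 6 of 6 runs. For both genes the run ranges overlapped, so these are differences seen within runs. *Jak1* was lower in CD4 T cells, at 340 against 394 in CD8 T cells, 1.16-fold (CI 1.08 to 1.25). That small difference was seen in 4 of 4 runs, with run ranges apart.

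CD8 T cells were divided further by markers of state. Cells with UMIs of *Pdcd1* and *Tcf7*, as in progenitor exhausted cells, numbered 1396, cells with *Pdcd1* and *Havcr2* and no *Tcf7*, as in terminally exhausted cells, numbered 298, and cycling cells numbered 1607. *Ifngr1* was at 977 CPM in the *Pdcd1* and *Tcf7* cells (runs 900 to 1064, median 944.0) and 703 in cycling cells (runs 590 to 815, median 735), 1.39-fold lower in the latter (CI 1.35 to 1.43), in 6 of 6 runs and with run ranges apart. *Jak1* was also lower in cycling cells, at 336 against 404, 1.202-fold (CI 1.15 to 1.25), in 6 of 6 runs and with run ranges apart. *Ifnar1* was 1.32-fold lower (97.5 against 129, CI 1.22 to 1.43) and *Irf9* 1.21-fold lower (49.6 against 59.9, CI 1.08 to 1.35), both in 6 of 6 runs with ranges that overlapped. *Ifngr2* was at 5.72 in cycling cells and 4.98 in the *Pdcd1* and *Tcf7* cells, and did not differ beyond counting error (ratio 1.15, CI 0.796 to 1.68). Cycling cells were therefore lower in *Ifngr1*, *Ifnar1*, *Jak1*, and *Irf9*.

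The *Pdcd1* and *Havcr2* cells were closer to the *Pdcd1* and *Tcf7* cells. *Ifngr1* was 1.24-fold lower in them (786 CPM, CI of the ratio 1.17 to 1.32), in 5 of 6 runs. *Tyk2* was 1.67-fold higher (26.2 against 15.7, CI 1.16 to 2.35), in 5 of 6 runs and with run ranges that overlapped. None of the 8 genes differed by 2-fold or more between these states.

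**Figure D2:**
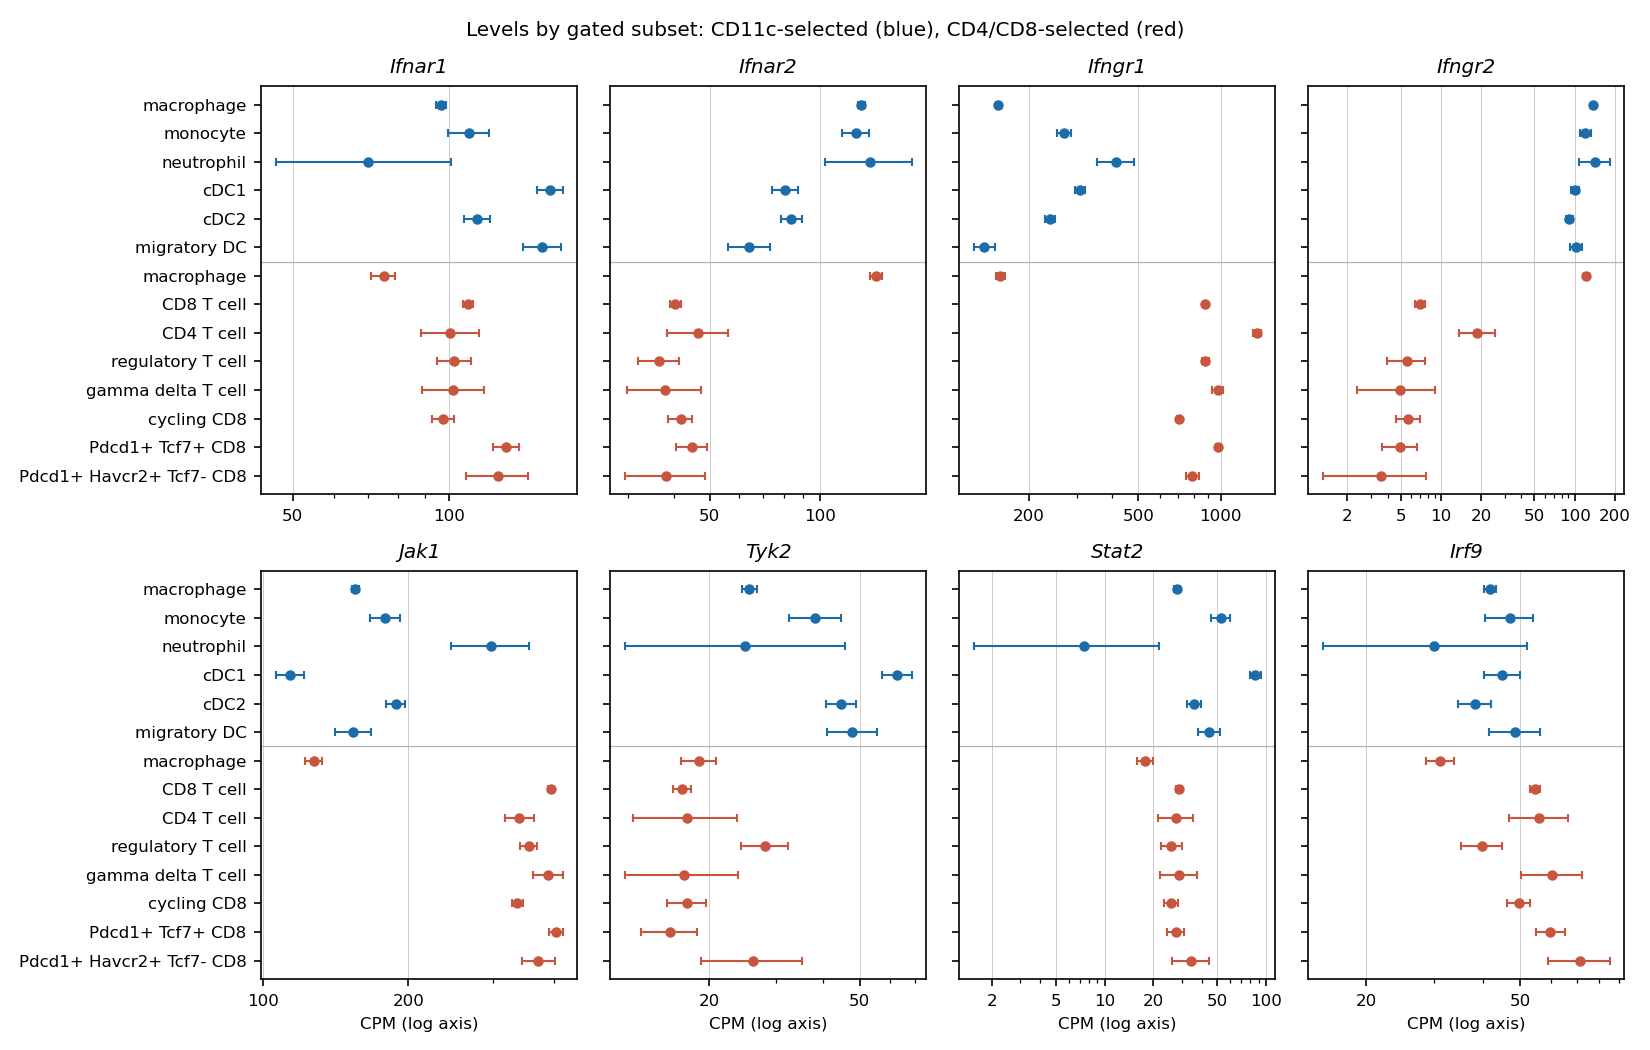
Levels in CPM (horizontal log axis) of the 8 genes in gated subsets, as points with exact 95% Poisson intervals, CD11c-selected subsets in blue above the line and CD4/CD8-selected subsets in red below it. *Ifngr2* is at 18.8 in CD4 T cells and 7.03 in CD8 T cells, and *Stat2* at 86.1 in cDC1 and 28.2 in macrophages.

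To set the 8 genes against ongoing interferon responses, cells were binned by their UMIs of 10 type I interferon-induced genes (*Isg15*, *Ifit1*, *Ifit2*, *Ifit3*, *Rsad2*, *Mx1*, *Oasl2*, *Usp18*, *Ifi44*, and *Cmpk2*) after thinning to 2000 UMIs. None of the 8 genes is in that list. CD4/CD8-selected T cells fell into 10642 cells with 0 such UMIs, 4556 with 1 to 3, and 1355 with 4 or more, and CD11c-selected myeloid cells into 5071, 2123, and 531. Median depths before thinning were 4882, 4500, and 4317 UMIs in the T cell bins and 11022, 10328, and 9422 in the myeloid bins, so the highest bin was not the deepest.

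*Stat2* rose most along the bins. In T cells it went from 18.1 to 32.2 to 111 CPM, 6.14-fold between the outer bins (CI 5.60 to 6.74), and in myeloid cells from 25.9 to 38.0 to 119.5, 4.61-fold (CI 4.23 to 5.02). The runs did not overlap between the outer bins, from 11.2 to 23.9 against 92.2 to 129.5 in T cells and from 22.4 to 32.8 against 101 to 143 in myeloid cells. *Irf9* rose less, 2.89-fold in T cells (41.7 to 120.5, CI 2.67 to 3.13) and 1.82-fold in myeloid cells (37.02 to 67.3, CI 1.64 to 2.02). Without the runs set apart by depth the folds were 5.71 and 4.63 for *Stat2* and 2.79 and 1.87 for *Irf9*. For comparison, *Irf7*, a known interferon target, rose 6.76-fold and 7.04-fold.

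The receptor chains and kinases changed less than *Stat2*. In T cells the ratio of the highest to the lowest bin was 1.14 for *Ifnar1* (CI 1.05 to 1.22), 1.01 for *Ifnar2* (CI 0.885 to 1.14), 1.02 for *Ifngr1* (CI 0.994 to 1.05), 0.993 for *Jak1*, and 1.02 for *Tyk2*. *Ifngr2* was lower in the highest bin, with a ratio of 0.519 (CI 0.341 to 0.759) from 28 UMIs there. In CD11c-selected myeloid cells *Ifnar2* and *Ifngr2* had ratios of 1.10 and 1.11, *Ifnar1* and *Jak1* 0.906 and 0.935, and *Tyk2* 0.805. *Ifngr1* fell, from 191 to 122 CPM, a ratio of 0.638 (CI 0.592 to 0.686). Its run ranges overlapped, from 164 to 210 in the lowest bin and from 92.9 to 175 in the highest. CD4/CD8-selected myeloid cells, with 47 cells in the highest bin, had a ratio of 0.836 for *Ifngr1*, with an interval that includes 1 (CI 0.685 to 1.01), and 0.876 for *Ifnar2* (CI 0.716 to 1.06). Their *Tyk2* had a ratio of 1.65 (CI 1.06 to 2.48) with all runs and 0.875 without run 2 (CI 0.470 to 1.503), so its direction there depended on that run.

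The makeup of the bins was measured beside these ratios. cDC1 made up 7.34% of the myeloid cells in the lowest bin and 1.70% in the highest, and macrophages 71.6% and 81.9%. Ratios were therefore taken within macrophages, as a choice made after the data had been seen. There *Ifngr1* had a ratio of 0.690 among CD11c-selected cells (CI 0.633 to 0.752) and 0.695 among CD4/CD8-selected cells (CI 0.562 to 0.850), so the lower *Ifngr1* was also present within 1 subset on pooled cells. The CD4/CD8-selected ratio rests on 42 macrophages in the highest bin. Only 1 run had at least 20 CD4/CD8-selected myeloid cells in that bin, with *Ifngr1* at 126.6 CPM, against 137.9 to 209 over runs of the lowest bin. A part of run makeup in this ratio was not tested. *Tyk2* within macrophages had ratios of 0.930 (CI 0.767 to 1.12) and 1.25 (CI 0.747 to 1.97), which include 1. *Stat2* within macrophages rose 5.33-fold and 5.83-fold, and *Irf9* 1.88-fold and 1.48-fold. Within CD8 T cells *Stat2* rose 6.08-fold (CI 5.50 to 6.72) and *Irf9* 2.78-fold (CI 2.55 to 3.02), and the ratio of *Ifngr2* was 0.682 (CI 0.460 to 0.978).

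*Stat2* and *Irf9* were also set beside the induced list across runs. In T cells the 10 induced genes summed to 876 CPM in run 3, the highest, where *Stat2* (45.5) and *Irf9* (75.2) were also highest. They summed to 293 in run 2 and in run 5, and *Stat2* (17.5) and *Irf9* (36.9) were lowest in run 2. In CD11c-selected myeloid cells the sums went from 222 in run 4, which also had the lowest *Stat2* (27.1) and *Irf9* (31.5), to 578 in run 5. The highest *Irf9* (47.7) was in run 5, but the highest *Stat2* (39.7) was in run 1, where the list summed to 438. In CD4/CD8-selected myeloid cells the list was lowest in run 5 (151) and highest in run 6 (467). *Irf9* was also lowest (26.3) and highest (33.4) in these runs. *Stat2* was at 23.5 in run 5 and 22.3 in run 6, and was highest (25.8) in run 4, where the list summed to 314.5. So *Stat2* did not keep the order of the list in myeloid cells of either matrix. Between its extremes *Irf9* did not keep it either. In CD11c-selected myeloid cells *Irf9* was at 38.1 in run 2, where the list summed to 510, and at 47.0 in run 1 (438). In CD4/CD8-selected myeloid cells it was at 33.0 in run 4 (314.5) and at 29.8, from 13 UMIs, in run 1 (364). No run has a known genotype, and what sets the runs apart was not tested.

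**Figure D3:**
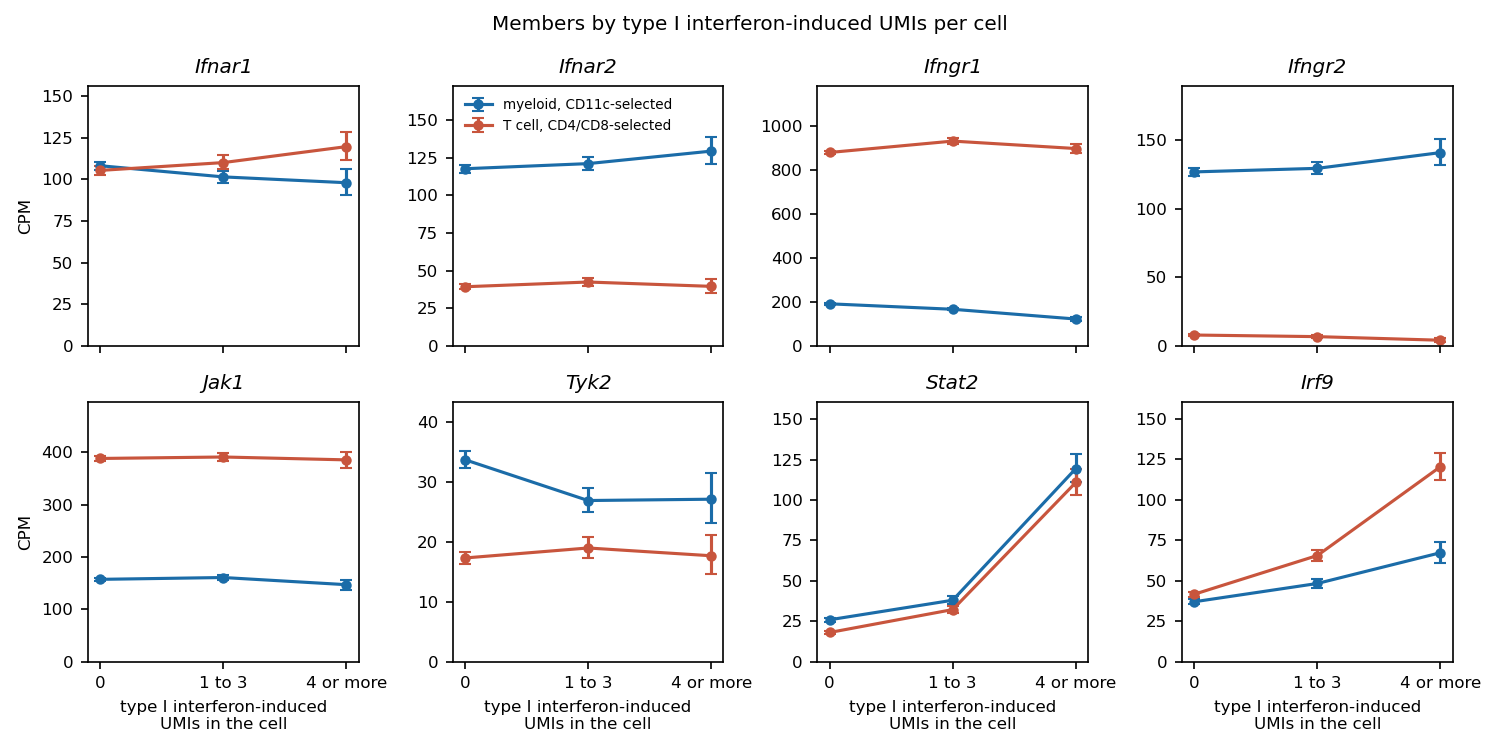
Levels of the 8 genes in CPM (vertical axis) in cells with 0, 1 to 3, and 4 or more UMIs of 10 type I interferon-induced genes after thinning to 2000 UMIs (horizontal axis), for CD11c-selected myeloid cells in blue and CD4/CD8-selected T cells in red, with exact 95% Poisson intervals. *Stat2* goes from 18.1 to 111 in T cells and *Ifngr1* from 191 to 122 in myeloid cells.

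Other genes of the pathway were taken from fixed lists and compared between myeloid and T cells by the same 2-fold rule. The gene with the most UMIs of a list is named to show where its counts lie, and not as a ranking of transcript amounts. Over all genes, 39.2% were higher in myeloid and 19.5% in T cells of the CD11c-selected matrix, and 23.7% and 28.1% in the CD4/CD8-selected matrix. Of 8 other Janus kinases and STATs, 4 were higher in T cells in each matrix (*Stat3*, *Stat4*, *Stat5a*, and *Stat5b*) and 0 in myeloid cells, and *Stat3* held the most UMIs of the list in both classes, at 373 CPM in CD4/CD8-selected T cells and 146 in myeloid cells. *Jak1* thus shared its direction with several STATs. Of 8 class II cytokine receptor genes, the family of the 4 chains, 6 could be tested in the CD11c-selected matrix, with 4 higher in myeloid cells and 2 in T cells, of which 2 and 1 had intervals that leave out 1, since the 51 T cells held few UMIs. In the CD4/CD8-selected matrix 4 could be tested, with 1 and 0. *Il10rb*, the shared chain of the IL-10 and interferon lambda receptors, held the most UMIs in both classes, at 140 in myeloid cells and 45.9 in T cells of the CD4/CD8-selected matrix, a pattern like that of *Ifnar2*.

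Of 8 negative regulators, 2 were higher in myeloid cells (*Socs3* and *Ptpn6*) and 1 in T cells (*Socs1*) of the CD11c-selected matrix, and 1 (*Ptpn6*) and 1 (*Socs1*) in the CD4/CD8-selected matrix. *Socs3* held the most UMIs in CD11c-selected myeloid cells (331 CPM), and *Ptpn1* in CD4/CD8-selected myeloid cells (265) and in T cells of both matrices (335 and 209). Of the 8 IRF family genes other than *Irf9*, 3 and 2 were higher in myeloid cells and 1 and 1 in T cells, and *Irf8* held the most UMIs except in CD4/CD8-selected T cells, where *Irf7* did (121). *Irf9* had no call in either matrix.

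Target lists went in both directions. Of the 10 type I interferon-induced genes, 5 were higher in myeloid cells (3 with intervals that leave out 1) and 0 in T cells of the CD11c-selected matrix, and 2 and 3 in the CD4/CD8-selected matrix, with the most UMIs from *Isg15* in both classes (91.4 in CD4/CD8-selected myeloid and 198 in T cells). Of 8 interferon gamma-induced genes, 3 were higher in myeloid and 4 in T cells of the CD11c-selected matrix, 2 and 3 of them with intervals that leave out 1, and 2 and 3 in the CD4/CD8-selected matrix, with *Gbp2* the gene with the most UMIs in myeloid cells (41.3 and 25.6) and *Igtp* in T cells (167 and 94.7).

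Ligands were scarce apart from *Ifng*. CD4/CD8-selected T cells had 153 CPM of *Ifng*, against 1.61 in myeloid cells of that matrix, and CD11c-selected T cells had 73.7. *Ifnb1* was at 2.81 and 1.46 in CD11c-selected and CD4/CD8-selected myeloid cells, 290 and 28 UMIs. The other ligands with at least 3 UMIs in a class were *Ifnk* (9 UMIs) and *Ifnab* (5) in CD11c-selected myeloid cells, *Ifnz* (5) and *Ifna16* (3) in CD4/CD8-selected T cells, and *Ifnl3* (7) and *Ifnl2* (3) in CD4/CD8-selected tumor cells.

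For each of the 8 genes, the genes with the most similar levels were found among 11918 genes by the Pearson correlation of log2(CPM + 1) over 23 populations, which are nested or share libraries, so the values are descriptions. *Ifnar1* was most like *Dock10* (r = 0.951) and *Fmnl1* (0.948), and *Ifnar2* most like *Slc11a1* (0.965). *Ifngr1* was most like *Itpkb* (0.969) and *Agap2* (0.965), and *Ifngr2* most like *Mgrn1* (0.962) and *Ifitm2* (0.960). None of the 4 chains was the nearest neighbor of another. *Jak1* was most like *Slc16a1* (0.945) and *Hsd11b1* (0.936), and *Tyk2* most like *Ero1lb* (0.919) and *Napsa* (0.891). The lowest top values were those of *Stat2*, with *Csprs* (0.854) and *Trmt10a* (0.812), and *Irf9*, with *Gm49359* (0.884) and *Prdm10* (0.872).

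In the genome, 3 of the receptor chain genes sit together. By GENCODE M21 on GRCm38, *Ifnar2*, *Il10rb*, *Ifnar1*, and *Ifngr2* lie in this order on the + strand of chromosome 16 within 193 kb, from 91372783 to 91565623, with 574, 59403, and 39630 bases between neighbors. Neighbors in this cluster did not share 1 class pattern, since *Ifnar2*, *Il10rb*, and *Ifngr2* were higher in myeloid than in T cells and *Ifnar1* was not. *Ifngr1* lies alone at chr10:19591949-19610229. *Stat2* is at chr10:128270559-128292849, *Irf9* at chr14:55603571-55610030, *Jak1* at chr4:101152367-101265282 on the − strand, and *Tyk2* at chr9:21104068-21131243 on the − strand.

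Overlapping genes could share reads with some of the 8. *Rnf31* overlaps the start of *Irf9* on the same strand and had 14.8 and 24.2 CPM in CD11c-selected myeloid and CD4/CD8-selected T cells. *Gm21970* overlaps *Ifnar2* and *Il10rb* on the same strand and had 1 UMI in all myeloid and T cells of both matrices. Genes on the opposite strand were *Raver2* at *Jak1* (1.04 in CD4/CD8-selected T cells) and *1700084C06Rik* at *Tyk2* (0.146). A part of these genes in the levels of *Irf9*, *Ifnar2*, *Jak1*, and *Tyk2* was not tested.

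Since *Stat2* and *Irf9* rose with the induced genes, promoters were searched for the core of the interferon-stimulated response element, GAAANNGAA on both strands, in RefSeq windows of 300 bases (GRCm38.p6, 250 before to 50 after each start). All 8 genes had a window, 9 windows in all. The letters were found in 8.56% of 32841 promoters, in 5 of 8 matched induced genes (*Isg15*, *Ifit1*, *Ifit3*, *Rsad2*, and *Ifi44*), and in 1 of the 8 genes described here, *Stat2*. The match lies 221 bases before the RefSeq start of *Stat2*, and the stretch around it, chr10:128270248-128270325 on the + strand, is shown with the match in capitals.
*Stat2* promoter: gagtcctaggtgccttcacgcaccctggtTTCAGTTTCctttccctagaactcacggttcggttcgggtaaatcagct
The core of the gamma-activated sequence, TTCNNNGAA, was found in 8.30% of promoters and in *Ifnar2* and *Ifnar1*, 214 and 5 bases before their starts. A match describes the letters in the window, and no match says only that these letters are not in it.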

How the data were processed

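The deposited files hold raw UMI counts, 1 matrix per selection, and the submitters' processing notes name Cell Ranger 3.0.2 and mm10. The authors' counts were used unchanged. Cells with at least 200 genes and under 10% mitochondrial UMIs were gated on raw marker UMIs, and UMIs were summed per class. Doublets were treated only by the gates, with no caller. Intervals are exact Poisson or Clopper-Pearson, and ratios use the exact interval of 2 Poisson counts. Called means past 2-fold with at least 20 UMIs over both classes. Named genes are the 8 genes, the gene with the most UMIs of each pathway list in myeloid and T cells, every ligand with at least 3 UMIs in a class, and up to 2 genes most correlated with each of the 8. The 8 genes and the lists were chosen with earlier results of these data known. The edgeR test between genotypes was not run, and processed R objects named in the paper were not among the files used. The interferon-stimulated response element was first searched with a further A at the end of the core, which matched the same 1 of the 8 genes. Alternatives changed filters, gates, summing, thinning, fold and UMI limits, or left out a barcode run. Python 3.11.15, numpy 2.4.6, and scipy 1.17.1 were used, and the scripts were tested on simulated data.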

Additional observations from a re-analysis of the deposited data

How the results depend on the processing

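No paired analysis was possible because the barcodes of the files used name no sample, and processed R objects named in the paper were not at hand, and for the same reason the edgeR and DESeq2 tests between genotypes, with or without a replicate block, were not run. Of 144 recomputed log2 ratios of myeloid to T cells, 122 stayed within their interval, 2 changed sign, neither of them over 2-fold before (CD4/CD8-selected *Ifnar1*, from −0.45 to 0.05 without run 3, and *Tyk2*, to −0.02 with a 5% mitochondrial limit), and 1 moved by over 1.5-fold (*Stat2*, CD11c-selected, to 0.35 with 20% mitochondrial UMIs). Of 392 recomputed levels, 0 moved by over 1.5-fold. The largest change was 1.41-fold, *Stat2* in CD4/CD8-selected tumor cells, to 21.1 with a 5% mitochondrial limit. Counts of genes past the fold limit depended most on that limit. At 1.5-fold, tumor against myeloid cells gave 5 (CD11c-selected, also 5 with other lists at 0 UMIs) and 7 (CD4/CD8-selected), and fibroblasts against myeloid cells gave 7 (CD11c-selected). At 3-fold, CD11c-selected cells gave 2 for myeloid against T cells, 1 for fibroblasts against myeloid cells, 3 for tumor against T cells, and 2 for fibroblasts against T cells (also 2 with at least 100 UMIs). CD4/CD8-selected cells at 3-fold gave 2 for tumor against myeloid cells, 0 for fibroblasts against myeloid cells, and 2 for fibroblasts against T cells. Thinned to 1000 UMIs, which leaves fewer UMIs to see, both type I chains were found in 0.998% of CD11c-selected myeloid and 0.517% of CD4/CD8-selected T cells, and both type II chains in 1.91% and 0.311%. Without run 2 the last share, at 2000 UMIs, was 0.779%. Classes under 50 cells gave no value. This left out CD11c-selected T cells with a 5% mitochondrial limit, with other lists at 0 UMIs, without the deepest 5% of cells, and without any run but run 4, CD11c-selected fibroblasts with other lists at 0 UMIs, and CD4/CD8-selected fibroblasts with a 5% limit, other lists at 0 UMIs, or without run 3. Depth limits *Ifngr2* in T cells, *Tyk2* in fibroblasts, and all CD11c-selected T cell values, and intervals cover counting error only.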

Other observations

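Plasmacytoid DCs, known as makers of type I interferon, were too few for the comparisons, with 11 CD11c-selected and 25 CD4/CD8-selected cells. Their levels of the type I receptor chains were the highest of any gated population in the same matrix. *Ifnar1* was at 316 CPM (CI 231 to 422) and 274 (CI 212 to 349), and *Ifnar2* at 330 (CI 243 to 437) and 378 (CI 304 to 464). *Ifngr1* was at 131 and 49.8 in these cells. Endothelial cells, 26 and 17, had *Jak1* at 344 and 425 and *Irf9* at 73.8 and 73.5.

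Among genes outside the 8, *Ifnlr1*, the specific chain of the interferon lambda receptor, was at 7.97 CPM in CD11c-selected tumor cells (CI 5.25 to 11.6) and 8.14 in CD4/CD8-selected tumor cells (CI 6.15 to 10.6). Myeloid cells had 0.513 and 0.0520 of it, and CD4/CD8-selected T cells 0.0313 from 3 UMIs. Tumor cells, which had the lowest levels of *Ifnar1* and *Ifngr1*, were thus the class with the most *Ifnlr1*. The gates left 876 CD11c-selected and 1058 CD4/CD8-selected cells without a class.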
